A study of Mus musculus with 18 samples.

Results

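The 10 genes described here, which receptor tyrosine kinase signalling through ERK is known to switch on, were followed in mouse brain with and without an implanted glioma: the Sprouty genes Spry1, Spry2 and Spry4, the related Spred1 and Spred2, the phosphatase genes Dusp4 and Dusp6, and the ETS transcription factor genes Etv1, Etv4 and Etv5. They were chosen by name, as 10 of the 23420 gene symbols in the count table. The choice was made with earlier results of these data known, so their distance from all genes is a description. All 10 passed the filter on low counts in each of the 11 comparisons made. All mice carried the Camk2a-Cre-Rpl22HA genotype, in which a Camk2a promoter drives Cre and Cre turns on an HA-tagged ribosomal protein, so that ribosome-bound RNA of excitatory forebrain neurons can be pulled down with an antibody to HA (IP) and set beside the total RNA of the same tissue (input). There were 3 conditions: control mice with no tumor, mice with glioma cells implanted in the cortex (tumor), and glioma-bearing mice given the mTOR inhibitor AZD8055 (AZD). Each condition had 3 input and 3 IP libraries, which makes 18 libraries in 6 groups. The labels give neither the ages of the mice, the dose and duration of AZD8055, nor the glioma line, and do not say whether replicates were separate animals, so each p-value reflects only library-to-library spread, which may be technical.

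In the textbook account, growth factors bind receptor tyrosine kinases, adaptors load RAS, and a kinase cascade that ends in MEK and ERK passes the signal to the nucleus. ERK then raises its own inhibitors. Sprouty proteins act near the receptor and RAS, Spred proteins bring the RAS inhibitor neurofibromin to the membrane, and DUSP6 takes phosphate off ERK in the cytoplasm while DUSP4 does so in the nucleus. ETV1, ETV4 and ETV5, the PEA3 group of ETS factors, carry the transcriptional output. RNA of these genes is therefore often read as a gauge of ERK activity, and gliomas with active PDGFRA signalling are a setting in which the pathway is known to run high.

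The libraries held 13561511 to 34178417 counts. Levels below are CPM, counts relative to library size, after TMM scaling over all 18 libraries, and they are compared only within a gene. Control and tumor input formed one library set by their description codes, control and tumor IP another, and all AZD libraries another, so AZD and library set cannot be told apart in any comparison of AZD with another condition. RNA of 12 glioma-lineage markers, oligodendrocyte progenitor genes such as Pdgfra, Olig2 and Sox10, summed to 345 to 439 CPM in the input and 308 to 369 in the IP of controls. It reached 5437 to 6796 in tumor input and 4696 to 5180 in tumor IP, then 2482 to 3446 in AZD input and 514 to 679 in AZD IP. All 12 markers were detected in every library and none was at 0. Summed RNA of 8 excitatory neuron markers such as Slc17a7 and Camk2a was 3624 to 4408 CPM in control IP against 2949 to 3199 in control input. It was 1622 to 2165 CPM in tumor IP against 1007 to 1874 in tumor input, groups that overlap. In AZD it was 3880 to 4753 in IP against 1395 to 1906 in input. Summed RNA of 8 astrocyte markers overlapped between IP and input in control (1983 to 2321 and 2014 to 2108 CPM) and in tumor (2066 to 2260 and 2038 to 2410). In control, glioma-lineage, proliferation and inhibitory neuron sums overlapped too, while oligodendrocyte, microglia and endothelial sums were lower in IP. In whole-tissue and pulled-down RNA alike, fewer cells of a type and less RNA per cell cannot be told apart.

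With the tumor, 9 of the 10 genes rose in both fractions, all except Spred2. Over all genes tested, 26.1% were higher in IP and 24.5% in input. Spry1, Spry4 and Etv4 had the largest changes of the 10. With AZD8055, no gene passed the test against tumor in input, beside 17.1% of all genes in either direction. In IP 6 fell and 1 rose, beside 33.5% lower and 25.1% higher over all genes. The paragraphs that follow give the values by role, beginning with the inhibitors that act near the receptor and RAS.

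Spry1 (chr3:37639947-37644599, coordinates here from RefSeq on GRCm38) encodes a Sprouty inhibitor of receptor tyrosine kinase signalling. Its input levels were 11.1, 6.43 and 5.32 CPM in control replicates 1 to 3, 229.6, 109 and 104 in tumor, and 114, 76.5 and 63.7 in AZD. Its IP levels were 8.37, 6.99 and 6.83 CPM in the controls, 172, 98.9 and 92.3 in tumor, and 28.45, 18.8 and 18.2 in AZD. Every tumor library lay above every control library, and tumor replicate 1 stood above the other two in both fractions. AZD IP lay between control IP and tumor IP without touching either, whereas AZD input overlapped tumor input. Tumor against control gave a log2 change of 4.07 ± 0.28 (SE) in IP, 16.8-fold (adjusted p = 1.68e-06), and 4.26 ± 0.40 in input (adjusted p = 2.59e-05). Against tumor, AZD IP fell by 2.53 ± 0.26 on the log2 scale (adjusted p = 1.74e-05), and the AZD input difference of -0.76 ± 0.34 did not pass (adjusted p = 0.15).

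Spry4 (chr18:38586247-38601347), another Sprouty inhibitor, had the same shape. Input levels were 15.7, 10.97 and 8.32 CPM in the controls, 259, 184 and 205 in tumor, and 210.5, 195 and 152 in AZD. IP levels were 17.4, 11.5 and 10.4 CPM in the controls, 229.5, 206 and 185 in tumor, and 53.8, 52.0 and 59.25 in AZD. Tumor input, tumor IP and AZD input formed one overlapping block at the top, AZD IP stood alone below them, and both control groups lay lowest and overlapped. The rise with tumor was 4.02 ± 0.19 in IP (adjusted p = 1.68e-07) and 4.19 ± 0.25 in input (adjusted p = 1.62e-06) on the log2 scale. AZD against tumor was -1.95 ± 0.17 in IP (adjusted p = 5.69e-06) and -0.18 ± 0.21 in input (adjusted p = 0.595).

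Spry2 (chr14:105891947-105896819), also a Sprouty inhibitor, had a smaller log2 change with tumor. Its IP levels were 57.6, 47.5 and 46.9 CPM in the controls, 151, 123 and 99.65 in tumor, and 59.3, 50.6 and 60.3 in AZD. In input they were 44.5, 44.2 and 34.4 CPM in the controls, 148, 87.9 and 102 in tumor, and 112, 87.45 and 66.1 in AZD. Tumor lay above control in both fractions, and AZD IP overlapped control IP. Tumor against control was 1.33 ± 0.16 in IP (adjusted p = 7.48e-05) and 1.44 ± 0.23 in input (adjusted p = 0.000784) on the log2 scale. AZD IP fell by 1.17 ± 0.16 against tumor IP (adjusted p = 0.000101), and its difference from control IP was 0.16 ± 0.15 (adjusted p = 0.461).

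The Spred genes, which recruit neurofibromin, moved little. Spred1 (chr2:117121071-117182279) ranged from 239 to 274 CPM in the input of controls, 305 to 350.0 in their IP, 382 to 401 in tumor input and 394 to 481 in tumor IP. It rose with tumor by 0.48 ± 0.10 in IP (adjusted p = 0.0025) and 0.61 ± 0.09 in input (adjusted p = 0.000636) on the log2 scale, 1.4-fold and 1.52-fold. In AZD Spred1 ranged from 337.5 to 342.9 CPM in input and 379.2 to 418.1 in IP. Its AZD IP difference from tumor IP was -0.20 ± 0.10 (adjusted p = 0.105). That difference passed with plain library totals (0.00422), over genes with a mean of at least 5 CPM (0.0297) and without tumor IP replicate 1 (0.0342). Spred2 (chr11:19924442-20024026) was the gene that did not rise. Its input levels were 44.2, 43.7 and 42.3 CPM in the controls, 35.3, 40.8 and 44.1 in tumor, and 39.3, 41.3 and 35.6 in AZD. Its IP levels were 61.8, 52.7 and 49.0 CPM in the controls, 47.7, 58.7 and 48.5 in tumor, and 60.3, 68.4 and 74.3 in AZD. Tumor overlapped control in both fractions, and the tumor differences were -0.05 ± 0.12 in IP (adjusted p = 0.767) and -0.14 ± 0.11 in input (adjusted p = 0.315). AZD IP lay above all tumor IP libraries and rose by 0.36 ± 0.12 (adjusted p = 0.021). That call was lost without tumor IP replicate 1 (adjusted p = 0.0523), tumor IP replicate 3 (0.0726), AZD IP replicate 2 (0.0567) or AZD IP replicate 3 (0.0806), and with plain library totals, where the difference was 0.23 (adjusted p = 0.112).

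**Figure D1:**
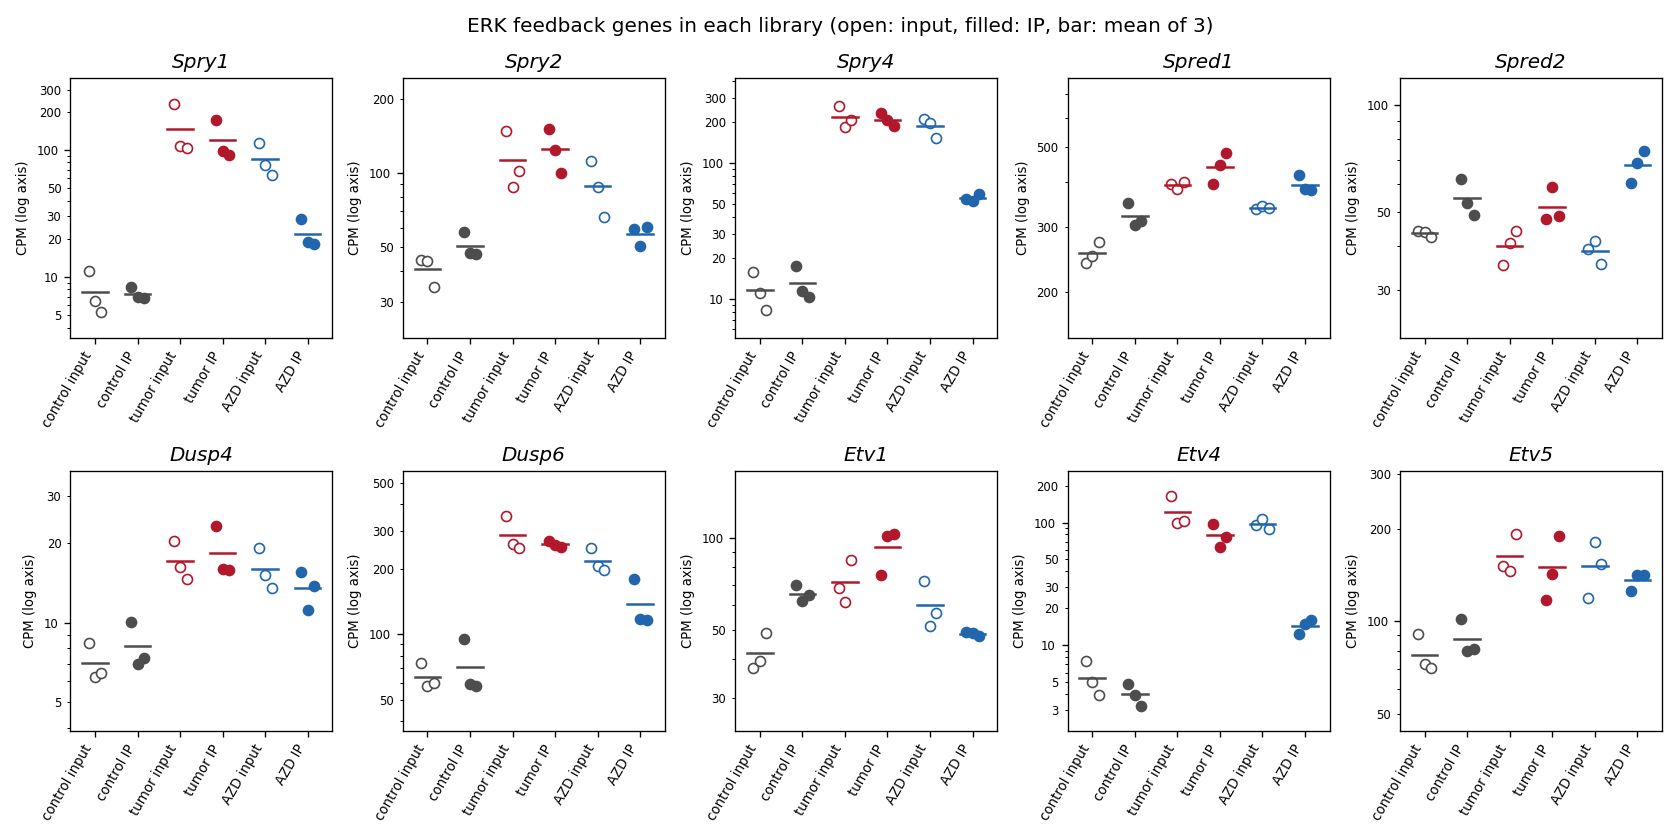
Level of each of the 10 genes in all 18 libraries, in CPM on a log axis whose range differs between panels; open circles are input, filled circles IP, and bars the mean of 3. For Spry1, Spry4 and Etv4 the AZD IP points sit between the control and tumor points, while the AZD input points sit beside tumor.

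Both phosphatase genes rose with tumor. Dusp6 (chr10:99263231-99267489), whose product acts on ERK in the cytoplasm, had input levels of 73.8, 57.7 and 59.6 CPM in the controls, 352, 259.8 and 250.1 in tumor, and 249, 207 and 198 in AZD. In IP it had 95.35, 59.1 and 57.9 CPM in the controls, 269.6, 259.5 and 253 in tumor, and 179.7, 117.5 and 117 in AZD. AZD input fell just below tumor input with no overlap, and AZD IP lay between tumor IP and control IP, touching neither. The rise with tumor was 1.92 ± 0.21 in IP (adjusted p = 5.26e-05) and 2.16 ± 0.17 in input (adjusted p = 7.96e-06) on the log2 scale. AZD against tumor was -0.96 ± 0.21 in IP (adjusted p = 0.00245) and -0.36 ± 0.16 in input (adjusted p = 0.151). Dusp4 (chr8:34807610-34819894), which acts in the nucleus, was at 6.26 to 8.40 CPM in control input, 14.6 to 20.4 in tumor input and 13.5 to 19.2 in AZD input. Its IP levels were 6.99 to 10.03 CPM in the controls, 15.8 to 23.2 in tumor and 11.1 to 15.5 in AZD. It rose with tumor by 1.20 ± 0.21 in IP (adjusted p = 0.000973) and 1.26 ± 0.20 in input (adjusted p = 0.000769). The AZD IP difference from tumor IP was -0.49 ± 0.20 (adjusted p = 0.0609), and it passed without tumor IP replicate 2 (0.0493), tumor IP replicate 3 (0.0464) or AZD IP replicate 1 (0.0443), with plain library totals (0.0305) and over genes with a mean of at least 5 CPM (0.0461).

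Among the ETS factors, Etv4 (chr11:101769747-101785310) changed most. Input levels were 7.44, 4.99 and 3.92 CPM in the controls, 163, 98.35 and 103.5 in tumor, and 95.6, 106 and 88.5 in AZD. IP levels were 4.85, 3.98 and 3.23 CPM in the controls, 96.4, 63.3 and 76.4 in tumor, and 12.4, 14.9 and 16.0 in AZD. The AZD input libraries stood with the tumor libraries, and the AZD IP libraries stood below them and above control, without overlap on either side. Tumor against control was 4.32 ± 0.21 in IP, 20.0-fold (adjusted p = 1.92e-07), and 4.46 ± 0.27 in input, 22.1-fold (adjusted p = 1.79e-06). By that log2 change Etv4 ranked 122 of the 15734 genes tested in IP. AZD against tumor was -2.47 ± 0.18 in IP (adjusted p = 2.11e-06) and -0.29 ± 0.22 in input (adjusted p = 0.392).

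Etv1 (chr12:38780082-38870483) differed from Etv4 in its control levels, which were higher in IP. Input levels were 37.5, 39.4 and 48.6 CPM in the controls, 68.3, 61.5 and 84.3 in tumor, and 72.0, 51.3 and 56.75 in AZD. IP levels were 69.85, 62.2 and 64.8 CPM in the controls, 75.2, 101 and 103 in tumor, and 49.2, 48.8 and 47.9 in AZD. AZD IP was the lowest of the IP groups, below every control IP library. Etv1 rose with tumor by 0.53 ± 0.11 in IP (adjusted p = 0.00235) and 0.75 ± 0.16 in input (adjusted p = 0.0037). It fell by 0.97 ± 0.11 in AZD IP against tumor IP (adjusted p = 3.28e-05) and by 0.43 ± 0.11 against control IP (adjusted p = 0.0113). Etv5 (chr16:22381313-22439570) was at 70.5 to 90.55 CPM in the input and 79.7 to 101 in the IP of controls. It ranged from 146 to 192 in tumor input, 117.5 to 189 in tumor IP, 119 to 181 in AZD input and 125 to 142 in AZD IP. All tumor and AZD libraries of Etv5 lay above all its control libraries, tumor IP overlapped each of tumor input, AZD input and AZD IP, and AZD IP lay below tumor input. Its rise with tumor was 0.81 ± 0.15 in IP (adjusted p = 0.00171) and 1.05 ± 0.17 in input (adjusted p = 0.000901), and AZD IP differed from tumor IP by -0.17 ± 0.15 (adjusted p = 0.355).

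Counted together, 9 of the 10 genes were higher in tumor than in control IP, where 26.1% of all genes tested were called higher. The members' median log2 change was 1.27, beside 0.02 over all genes. In input 9 were higher, beside 24.5% of all genes, with a median of 1.35 beside -0.01. Both contrasts lie within a library set. The glioma-lineage markers, 12 of 12 higher in each fraction, moved with this result, as did 8 of 8 proliferation markers. The summed excitatory markers were lower, at 1622 to 2165 CPM in tumor IP against 3624 to 4408 in control IP. Inhibitory neuron markers were at 405 to 742 against 993 to 1128, and oligodendrocyte markers at 759 to 1679 against 2263 to 2760. Microglia markers were at 237 to 345 against 355 to 374, while astrocyte and endothelial sums overlapped between these groups. The part of these lists in the members' rise was not tested. For no member was the tumor change called different between fractions: the contrast of IP over input between tumor and control called 0 of the 10 with edgeR, 0 at an unadjusted p under 0.05 and 0 with DESeq2, where 0.0687% of all genes were called in either direction.

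AZD against tumor separated the fractions. In IP 6 of the 10 genes were lower, beside 33.5% of all genes, and 1 was higher, beside 25.1%, with a median of -0.96 beside -0.09. In input edgeR called 0 of the 10, beside 17.1% of all genes in either direction. There 2 genes, Spry1 and Dusp6, had an unadjusted p under 0.05, DESeq2 called 0, and all 10 differences were below 0, from -0.76 to -0.01. Over the same contrast 12 of 12 glioma-lineage markers were lower in input (median -1.15) and 12 of 12 in IP (median -3.24), and their part in the members' changes was not tested. Markers of every other non-excitatory cell type listed were also lower in IP: 8 of 8 each for proliferation, astrocyte, oligodendrocyte, microglia and endothelial markers and 7 of 8 for inhibitory neuron markers. The astrocyte markers, for example, summed to 445 to 569 CPM in AZD IP against 2066 to 2260 in tumor IP, while 8 of 8 excitatory markers were higher.

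The difference between fractions was tested itself, as IP over input in AZD minus IP over input in tumor. By this measure 5 of the 10 genes were lower, beside 20.8% of all genes: Etv4 by -2.13 ± 0.31 on the log2 scale (adjusted p = 8.53e-05), Spry4 by -1.71 ± 0.29 (adjusted p = 0.000347), Spry1 by -1.71 ± 0.47 (adjusted p = 0.0107), Etv1 by -0.71 ± 0.20 (adjusted p = 0.0149) and Spry2 by -0.81 ± 0.29 (adjusted p = 0.0428). The remaining values were -0.54 for Dusp6 (adjusted p = 0.148), -0.37 for Dusp4, -0.05 for Etv5, 0.03 for Spred1 and 0.42 for Spred2 (adjusted p = 0.0531). With the input and IP libraries of a replicate number kept as a block, Dusp6 was also lower (-0.58, adjusted p = 0.00128) and Spred2 higher (0.42, adjusted p = 0.0155), where 50.1% of all genes passed in either direction. Spred2 also passed with DESeq2 (0.0376), with RLE scaling (0.0443), and without tumor input 1 (0.0181), tumor IP 2 (0.0259) or AZD IP 1 (0.0283). Its highest adjusted p over all runs was 0.252. Dusp6 also passed without AZD IP 1 (0.0474). The Spry2 call was lost when any one of tumor input 2 or 3, tumor IP 1 or 2, AZD input 1 or 2, or AZD IP 1, 2 or 3 was left out, with the adjusted p between 0.0616 and 0.132. The Etv1 call was lost without AZD input replicate 1 (adjusted p = 0.0508).

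**Figure D2:**
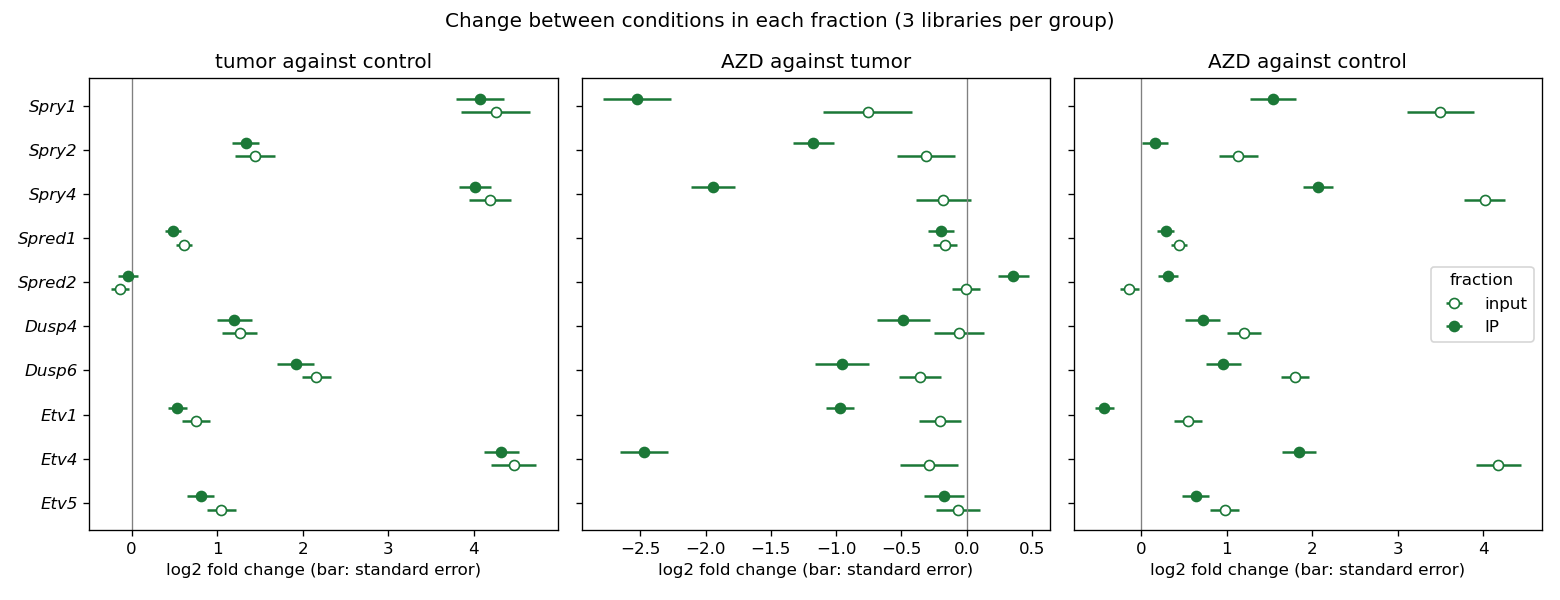
Log2 fold change of each gene between conditions, with its standard error as a bar, for input (open) and IP (filled), 3 libraries per group. In the middle panel the IP points of Spry1, Spry4 and Etv4 lie between -2.53 and -1.95, while all input points lie between -0.76 and -0.01.

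Against control, 9 of 10 genes were higher in AZD input, beside 20.7% of all genes, with Spry4 at 4.02 ± 0.24, Etv4 at 4.18 ± 0.26 and Spry1 at 3.50 ± 0.39 on the log2 scale (adjusted p = 3.74e-06, 4.23e-06 and 0.000129). The Etv1 call in input, 0.55 ± 0.16 (adjusted p = 0.0232), was lost without control input replicate 1 (0.0799), control input replicate 2 (0.0801) or AZD input replicate 1 (0.0963). In IP 7 genes were higher, beside 16.0% of all genes, and 1, Etv1, was lower, beside 17.4%. Spry4 was still higher by 2.07 ± 0.17 (adjusted p = 2.22e-05), Etv4 by 1.85 ± 0.20 (adjusted p = 9.19e-05) and Spry1 by 1.54 ± 0.27 (adjusted p = 0.0017). In the same contrast the glioma-lineage markers counted 4 higher and 3 lower of 12 and the proliferation markers 8 higher of 8. Summed glioma-lineage RNA was still higher, at 514 to 679 CPM in AZD IP against 308 to 369 in control IP. Pdgfra had the largest rise of the 12, between those of Spry1 and Etv4, and the markers' part in the members' changes was not tested. Dusp6 was higher by 0.96 ± 0.21 (adjusted p = 0.00568) and Etv5 by 0.63 ± 0.15 (adjusted p = 0.00959). The calls of Spred1 (0.29, adjusted p = 0.0458) and Dusp4 (0.72, adjusted p = 0.0226) were lost on leaving out single libraries. Spred1 was also lost with no filter on low counts (0.11) and over genes with a mean of at least 5 CPM (0.0554). Spred1 was lost without control IP 2 or 3 or without AZD IP 1, 2 or 3 (adjusted p 0.0632 to 0.163), and Dusp4 without control IP 2 or 3 or AZD IP 1 or 3 (adjusted p 0.0552 to 0.0889). Spred2 did not pass in IP (0.31 ± 0.12, adjusted p = 0.0602). It passed with DESeq2 (0.044), RLE scaling (0.0485) and all 18 libraries in 1 fit (0.0425), and without control IP 1 (0.0363) or AZD IP 1 (0.0358). Its highest adjusted p over all runs was 0.194.

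Within a condition, IP over input describes how far the tagged pull-down shifted each gene's share of RNA. In AZD, where both fractions belong to one library set, 5 genes were lower in IP than in input, beside 32.5% of all genes, and 1 was higher, beside 29.0%. Per numbered pair the log2 ratio of Etv4 was -2.90, -2.79 and -2.43, that of Spry1 -1.978, -1.998 and -1.78, and that of Spry4 -1.96, -1.90 and -1.35. Those of the summed glioma-lineage markers were -2.23, -2.27 and -1.92, and those of the summed excitatory markers 1.56, 1.38 and 1.23. Pair means of the other non-excitatory lists were as low: -2.14 for proliferation, -2.05 for oligodendrocyte, -1.88 for astrocyte, -1.85 for inhibitory neuron, -2.36 for microglia and -2.39 for endothelial markers. Etv4, Spry1, Spry4, Spry2, Dusp6 and Etv1 had negative ratios in every pair, as did all 7 non-excitatory lists. Spred1 and Spred2 had positive ratios in every pair, and Dusp4 and Etv5 differed in sign between pairs. The part of the lists in the members' ratios was not tested. In the fit Etv4 was lower by -2.73 ± 0.13 (adjusted p = 1.6e-05), Spry1 by -1.97 ± 0.25 (adjusted p = 0.000263) and Spry4 by -1.75 ± 0.13 (adjusted p = 3.89e-05). Dusp6 was lower by -0.66 ± 0.18 (adjusted p = 0.011) and Spry2 by -0.64 ± 0.18 (adjusted p = 0.0134), the latter lost without AZD IP replicate 2 (0.0559). Spred2 was the gene higher in IP, at 0.81 ± 0.11 (adjusted p = 0.000378), with pair ratios of 0.61, 0.72 and 1.05. With the replicate block Spred1 (0.21, adjusted p = 0.0413) and Etv1 (-0.28, adjusted p = 0.0259) passed too, beside 68.9% of all genes. Spred1 also passed with DESeq2 (0.0162), RLE scaling (0.0432) and no filter on low counts (0.0493). With plain library totals, though, its difference turned to -0.06 (adjusted p = 0.526). Etv1 also passed with plain library totals (-0.58, adjusted p = 0.00699), over genes with a mean of at least 5 CPM (0.0274) and without AZD input replicate 2 (0.0346). Plain library totals called Dusp4 (-0.52, adjusted p = 0.0444) and Etv5 (-0.42, adjusted p = 0.0283) as well.

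In control, 3 genes were higher in IP than in input, beside 17.7% of all genes, and here fraction and library set cannot be told apart. Etv1 was higher by 0.63 ± 0.10 (adjusted p = 0.000499), Spred1 by 0.31 ± 0.09 (adjusted p = 0.0129) and Spred2 by 0.30 ± 0.09 (adjusted p = 0.0214). Without control input replicate 2 both Spred calls were lost (0.053 and 0.0505), and Spred2 was also lost without control input replicate 3 (0.059) or control IP replicate 1 (0.107), with plain library totals (0.0826) and with all 18 libraries in 1 fit (0.0528). The replicate block called 5, beside 45% of all genes in either direction, adding Spry2 (0.28, adjusted p = 0.0117) and Etv4 (-0.45, adjusted p = 0.0344). In tumor, too, fraction and library set cannot be told apart. There edgeR called 0 of the 10, beside 5.09% of all genes in either direction, with 3 at an unadjusted p under 0.05 and 0 by DESeq2. With the replicate block 35.6% of all genes passed there, and 4 of the 10 did: Etv4 at -0.60 (adjusted p = 3.13e-06), Etv1 at 0.39 (adjusted p = 0.0018), Spred2 at 0.37 (adjusted p = 0.00274) and Spry1 at -0.24 (adjusted p = 0.0247).

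**Figure D3:**
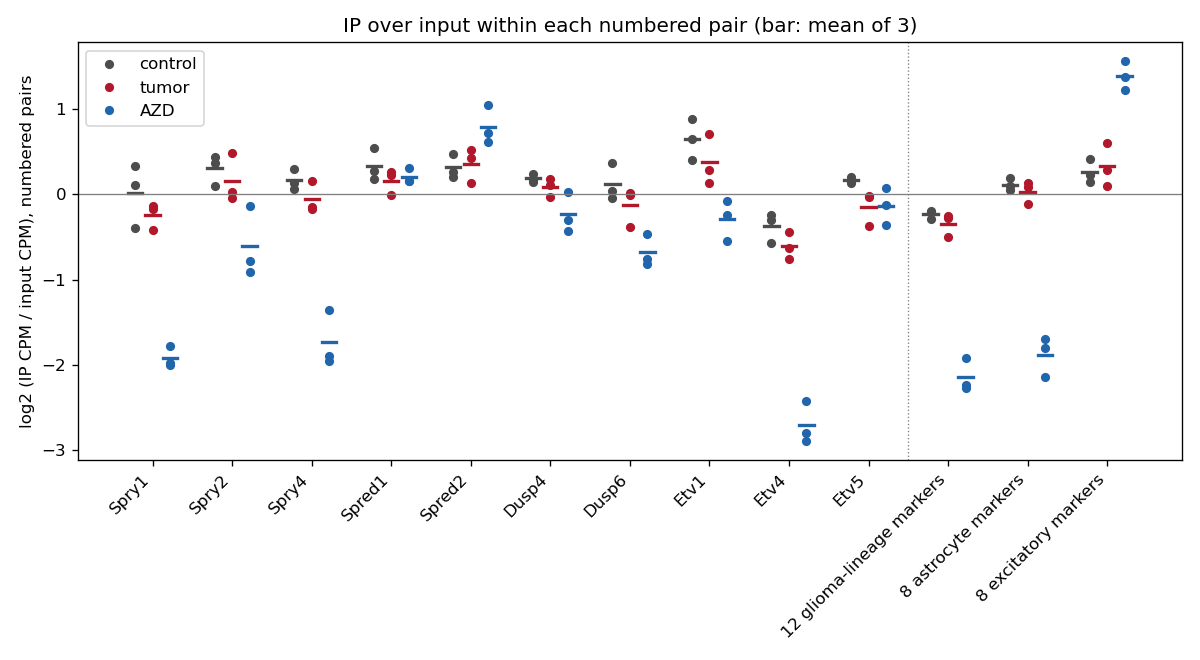
Log2 ratio of IP to input CPM in each numbered pair of libraries, for the 10 genes and, right of the dotted line, for 3 summed marker lists; bars are means of 3. The AZD points of Etv4, Spry1 and Spry4 lie at -1.35 or below, near those of the glioma-lineage and astrocyte markers, and the AZD points of Spred2 lie above 0.

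Because lineage RNA fell with AZD8055 in both fractions, each gene was also expressed per glioma-lineage marker, as its log2 CPM minus the mean log2 CPM of the 12 markers in the same library. By this measure all 10 genes were higher in AZD input than in tumor input, by 0.57 (Spry1) to 1.27 (Spred2), and 9 did so without overlap. The same held for 94.8% of the 11864 genes with a mean of at least 5 CPM, whose median difference was 1.25, so the members' share was near the background. In IP the differences ran from 0.69 for Spry1, 0.72 for Etv4 and 1.21 for Spry4 to 3.50 for Spred2, and 9 did not overlap, beside 97.5% of all genes and a median of 3.13. Between tumor input and control input only 3 genes were higher per marker, Etv4 by 0.92, Spry4 by 0.74 and Spry1 by 0.70, the last with overlap. Being higher without overlap held for 2 of the 10 and for 0.548% of all genes. The other 7 were lower, and the median over all genes was -3.43. Each value subtracts the same marker mean from every gene of a library. The differences therefore restate each gene's change in log2 CPM less that of the markers, and are descriptions with no test. In alternative runs of the AZD against tumor differences, 16 moved by at least the larger group SD and 24 moved by less.

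**Figure D4:**
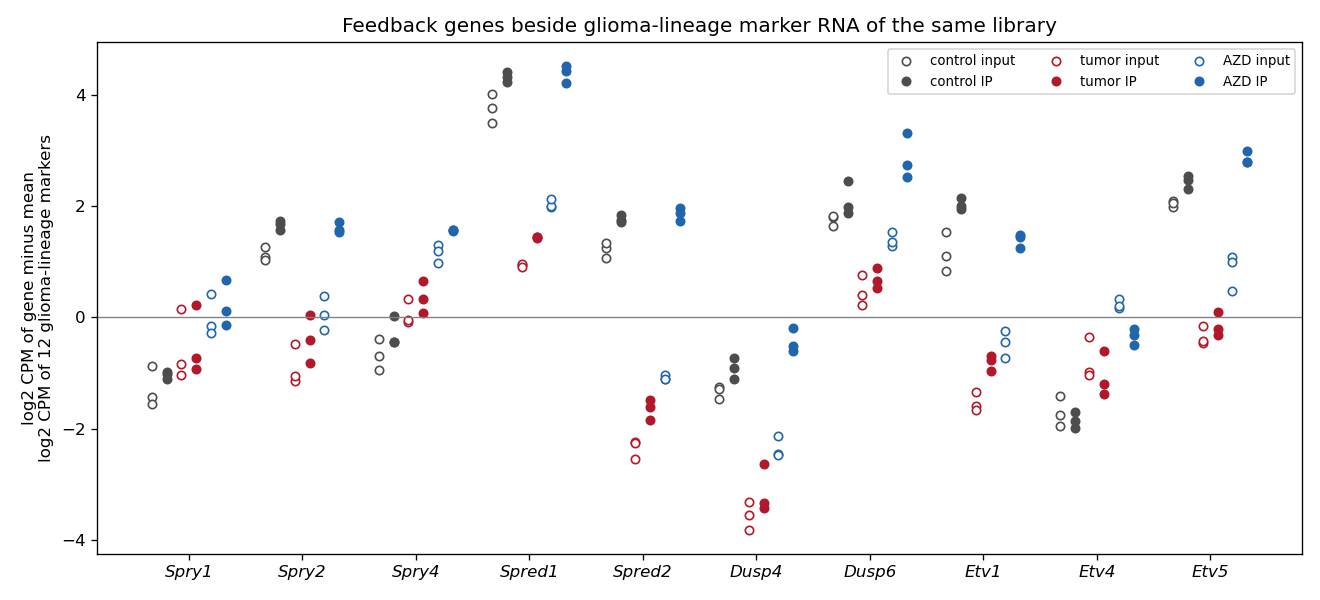
Log2 CPM of each gene minus the mean log2 CPM of 12 glioma-lineage markers in the same library, for all 18 libraries. For Spry1, Spry4 and Etv4 the control points lie lowest or among the lowest, while for the other 7 genes the tumor input points lie below the control input points.

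Other parts of the pathway, from lists drawn up by role, moved less uniformly with tumor; over all genes tested in IP 26.1% were called higher and 20.9% lower. Of 18 receptor genes tested in IP, 5 were higher and 4 lower, led by Pdgfra, the receptor for platelet-derived growth factor, at 4.62 ± 0.21 (adjusted p = 1.33e-07). Erbb3 rose by 3.01 ± 0.32, and Egfr fell by 0.75 ± 0.20 (adjusted p = 0.0122). Of 18 ligand genes 3 were higher and 7 lower, with Tgfa at 1.84 ± 0.15 and Pdgfa at 2.21 ± 0.26 among the risers. Adaptor and RAS genes counted 5 higher and 6 lower of 17, among them the adaptor Gab1 at 2.07 ± 0.10 and the exchange factor Rasgrf1 at -1.05 ± 0.15. Of 15 genes of the kinase cascade and its partners 7 were lower, Map2k1, which encodes a MEK kinase, at -0.62 ± 0.12 among them. Of 18 other ERK output genes 13 were higher and 2 lower (median 1.17 beside 0.02 over all genes): the cyclin gene Ccnd1 rose by 3.90 ± 0.16, Myc by 2.77 ± 0.34, Phlda1 by 2.58 ± 0.26 and Fos by 2.59 ± 0.44. Spred3, at 0.06 (adjusted p = 0.677), did not pass, like Spred2.

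In AZD against tumor, these lists counted 12 receptors, 9 ligands, 8 adaptor and RAS genes, 3 kinases and 10 other outputs lower in IP, and 1, 2, 4, 9 and 3 higher, out of 18, 18, 17, 15 and 18 tested, beside 33.5% lower and 25.1% higher over all genes. Pdgfra fell by 3.02 ± 0.19, Gab1 by 2.63 ± 0.10, Tgfa by 2.54 ± 0.16 and Ccnd1 by 2.62 ± 0.15, and Map2k1 rose by 0.93 ± 0.12. In input, where no member passed, 5 of the 18 other ERK outputs did and all 5 were lower, beside 9.17% of all genes lower. Fos, an immediate early gene, fell by 2.14 ± 0.39 (adjusted p = 0.00518) and Egr1, another, by 1.15 ± 0.17 (adjusted p = 0.00208). Phlda1 fell by 1.15 ± 0.32, Ccnd1 by 0.69 ± 0.18 and Dusp7, an ERK phosphatase gene, by 0.53 ± 0.15. Pdgfra fell by 0.72 ± 0.22 in input (adjusted p = 0.0433).

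Across the 18 libraries the members did not form one pattern. Pearson's r of log2 CPM was 0.98 between Spry4 and Etv4 and between Spry1 and Dusp6, and -0.44 between Spred2 and Etv4. These are descriptions over 18 libraries that fall into 6 groups, so r mostly reflects the group means and shares the libraries' depth and composition. Pdgfra had an r of 0.99 with Spry1 and with Etv4, 0.98 with Spry4 and 0.97 with Dusp6, whereas Spred2 had 0.75 with Camk2a and 0.77 with Slc17a7. The genes with the most similar pattern, among 11864 genes with a mean of at least 5 CPM, were Adamtsl3 and Igfbp3 for Spry1 (r = 0.996 and 0.993), Ppp1r14b and Shc4 for Spry4 (0.990 and 0.989), and Hip1 and Ppp1r18 for Etv4 (both 0.990). They were P4hb and Txnrd1 for Spry2 (0.9795 and 0.977), the proliferation genes Mki67 and Pbk for Dusp6 (0.984 and 0.982), and Rpl7a and Rpl7 for Dusp4 (0.973 and 0.969). For Spred2 they were Cdyl2 and Fam98b (0.970 and 0.934), for Spred1 Pcyox1l and Casp8ap2 (0.945 and 0.942), for Etv1 Zbtb10 and Zfp664 (0.9495 and 0.945), and for Etv5 Ctr9 and Trio (0.924 and 0.922).

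The start-site regions of 7 members were in the RefSeq promoter table for GRCm38.p6, in 9 windows of 300 bases that run from 250 bases before to 50 after a start, while Spry4, Dusp4 and Etv4 were not. They were searched on both strands for letters that ERK-responsive factors are known to bind: CCGGAA, an ETS core, AGGAAG, a PEA3-type ETS site, TGACTCA, an AP-1 site, and TGACGTCA, a CRE. The PEA3-type letters were in 4 of the 9 member windows and in 35.4% of all 32851 windows, and the ETS core in 1 of 9 and in 14.9%. The AP-1 letters and the CRE were in 0 of 9, beside 5.2% and 1.79% of all windows. The letters are a description of the sequence, not evidence of binding. Only 5 windows are shown for the genes whose changes are contrasted above: Spry1 (chr3:37639697-37639996, plus strand), Spry2 (chr14:105896770-105897069, minus strand), Dusp6 (chr10:99262981-99263280, plus strand), the first Etv1 window (chr12:38779832-38780131, plus strand) and Spred2 (chr11:19924192-19924491, plus strand), the gene that did not rise with tumor. Each is read 5′ to 3′ on the gene's strand, and capitals mark matches to the searched letters or their reverse complement. Spry1, with the largest rise among these 5, holds no match, Spry2 holds the ETS core, and Dusp6, Etv1 and Spred2 hold the PEA3-type letters, in Etv1 as a pair of overlapping copies.
Spry1: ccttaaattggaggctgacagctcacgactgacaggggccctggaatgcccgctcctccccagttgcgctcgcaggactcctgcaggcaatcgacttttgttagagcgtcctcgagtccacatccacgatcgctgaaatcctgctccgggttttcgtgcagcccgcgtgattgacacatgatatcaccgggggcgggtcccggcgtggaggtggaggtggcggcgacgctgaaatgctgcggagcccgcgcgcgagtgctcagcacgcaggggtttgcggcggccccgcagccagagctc
Spry2: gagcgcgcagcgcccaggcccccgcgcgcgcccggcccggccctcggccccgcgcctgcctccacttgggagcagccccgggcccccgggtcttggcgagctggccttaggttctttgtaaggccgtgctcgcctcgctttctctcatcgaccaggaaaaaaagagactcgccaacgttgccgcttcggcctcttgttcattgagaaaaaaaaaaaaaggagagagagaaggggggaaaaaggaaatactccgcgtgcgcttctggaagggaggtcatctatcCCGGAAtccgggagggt
Dusp6: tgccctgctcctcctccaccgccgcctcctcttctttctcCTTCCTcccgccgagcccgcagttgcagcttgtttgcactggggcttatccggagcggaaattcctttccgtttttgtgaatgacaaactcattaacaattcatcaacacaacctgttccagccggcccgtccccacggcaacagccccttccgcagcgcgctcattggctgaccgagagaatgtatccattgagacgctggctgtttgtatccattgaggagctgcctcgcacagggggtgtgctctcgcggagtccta
Etv1: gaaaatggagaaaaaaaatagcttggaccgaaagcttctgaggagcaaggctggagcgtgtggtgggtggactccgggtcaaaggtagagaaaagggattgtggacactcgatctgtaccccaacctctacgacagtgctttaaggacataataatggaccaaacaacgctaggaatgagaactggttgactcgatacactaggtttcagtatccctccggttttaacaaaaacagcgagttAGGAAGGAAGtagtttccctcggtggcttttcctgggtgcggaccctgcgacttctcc
Spred2: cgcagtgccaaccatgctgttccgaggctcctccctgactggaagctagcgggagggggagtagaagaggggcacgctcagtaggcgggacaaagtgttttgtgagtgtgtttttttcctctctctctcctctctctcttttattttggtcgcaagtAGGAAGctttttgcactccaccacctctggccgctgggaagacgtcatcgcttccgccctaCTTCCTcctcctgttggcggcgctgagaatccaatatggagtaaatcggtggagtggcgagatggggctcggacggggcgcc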

How the data were processed

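Per the labels, RNA from RNeasy columns went into NEBNext Ultra Directional libraries. The deposited table holds raw, unnormalised counts per gene symbol for 18 libraries. STAR, DESeq2 and mm10 appear in the submitters' processing notes. Versions, annotation, strand setting and the program that counted reads are not given in these sources, and a second gene model overlaps Dusp6, whose reads cannot be told apart from its own. Counts were tested with edgeR 4.0.16 (quasi-likelihood F test, 2-sided, TMM scaling, filterByExpr, R 4.3.3), with Benjamini-Hochberg adjustment over all genes tested and a threshold of 0.05. Conditions were compared in 9 libraries of a fraction, fractions in 6 libraries of a condition, and IP over input in all 18. Levels are CPM, with 0.5 added before log2. Of the symbols, 21571 (92.1%) matched RefSeq, all 10 members included. Genes named outside the members are, per list and comparison, at most 4 of lowest adjusted p and at most 2 without a call, any marker, and the 2 most alike per member.

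Same-numbered input and IP libraries deviated together (r over 11864 genes 0.320 to 0.348 in control, 0.663 to 0.889 in tumor, 0.293 to 0.630 in AZD), so the numbers were taken to pair them. Weaker matches by number were also seen between conditions, for control input with tumor IP (0.162 to 0.231) and control IP with tumor IP (0.0828 to 0.1025). The pairing is therefore not established. Alternatives were DESeq2 1.42.0, other scalings and filters, a replicate block, 1 fit of all libraries, and leaving out each library. The members and lists were chosen with earlier results of these data known. The procedure was tested on simulated data. One gene of the kinase list is not reported here.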

Additional observations from a re-analysis of the deposited data

Results flagged for a closer look

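For 5 genes the change between tumor and AZD differed between IP and input, by the test of that difference itself. IP over input in AZD minus IP over input in tumor was -2.13 on the log2 scale for Etv4, -1.71 for Spry4, -1.71 for Spry1, -0.81 for Spry2 and -0.71 for Etv1. Each was lower in AZD. The Spry2 call was lost in 9 of the 12 runs that left out 1 library, and the Etv1 call without AZD input replicate 1 (adjusted p = 0.0508). The mean log2 ratio over 3 numbered pairs was -2.71 in AZD and -0.61 in tumor for Etv4, -1.74 and -0.06 for Spry4, -1.92 and -0.24 for Spry1, -0.61 and 0.16 for Spry2, and -0.29 and 0.38 for Etv1. The summed glioma-lineage markers had -2.14 and -0.34 over the same pairs, the summed astrocyte markers -1.88 and 0.03, the other 5 non-excitatory lists -2.39 to -1.85 in AZD and -0.47 to -0.16 in tumor, and the summed excitatory markers 1.39 and 0.33, and their part in the result was not tested. The AZD libraries of both fractions belong to one library set and the tumor libraries to 2 others, so library set and condition cannot be told apart here.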

How the results depend on the processing

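No direction of a called member change reversed under any alternative run. The count of members called changed by over 1.5 times in 4 comparisons. With the replicate block, AZD against tumor in input called 2 in place of 0, Spry1 (-0.70, adjusted p = 0.0036) and Dusp6 (-0.35, adjusted p = 0.0314), where the shared numbers are not shown to pair the libraries. Between conditions the block also lost Spred1, AZD against control in IP (adjusted p = 0.0711), and gained Dusp4, AZD against tumor in IP (0.00957). IP against input called 4 with the block in tumor, 1 (Spred2) with all 18 libraries in 1 fit, and 0 otherwise. In control it called 5 with the block, and 1 to 3 on leaving out each library. IP over input, AZD minus tumor, called 3 to 6 on leaving out each library, 3 without AZD input replicate 1. The block changed no other count of members by that much.

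Counts over all genes moved by over 1.5 times as follows. IP against input in tumor gave 776 calls, 1644 with DESeq2, 451 at a mean of at least 5 CPM, 5433 with the block, 2225 with all libraries in 1 fit and 120 to 498 on leaving out a library. IP over input, tumor minus control, gave 11, 39 with DESeq2, 17 with plain totals, 67 with the block and 5 to 20 on leaving out a library. IP over input, AZD minus tumor, gave 5296, and 8025 with the block. AZD against control in IP gave 5246, and 3429 without control IP replicate 2. AZD against tumor in input gave 2646, and 1410 or 1359 without AZD input replicate 2 or 3. AZD against control in input gave 5703, and 3737 or 3760 without control input replicate 2 or AZD input replicate 1. Plain totals shifted the median of all genes by -0.28 for IP against input in AZD, -0.18 for IP over input, AZD minus tumor, and -0.13 for AZD against tumor in IP. They moved the share of calls that were higher from 47.18% to 25.76% (IP against input in AZD), 37.18% to 17.75% (IP over input, AZD minus tumor), 48.42% to 31.59% (control) and 41.49% to 30.43% (tumor). The cause was not tested. Low counts limit Spry1, Spry4, Dusp4 and Etv4 in control, and 3 libraries a group limit small changes.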
